A study of Mus musculus with 8 samples.

Results

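The promoter peaks of solute carriers and other membrane transporters were taken from an ATAC-seq experiment on mouse kidney tubuloids. They were chosen by position and name. A peak counted when its centre lay within 1000 bp of the transcription start site given with it and its gene symbol began with Slc or Slco and a number, with Abca to Abcg and a number, with Atp6v, or with Atp1a or Atp1b and a number. This gave 86 peaks at 85 genes (Slc35e2a had 2 peaks), out of 6425 peaks in all and 4162 within the same distance of a start. ATAC-seq reads out accessible chromatin by the places where a transposase can cut and tag the DNA. Tubuloids are primary renal tubule epithelium, here wild-type and from the renal cortex, kept as 3-dimensional structures in Matrigel. The 2 groups, both from wild-type cells, were 4 libraries given vehicle and 4 given myoglobin to injure the cells, all taken at 12 h. The labels give no age, sex or strain and do not say which libraries share a mouse, so p-values measure the spread between these samples, which may be technical.

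Transporters set what a tubule cell can take up, secrete and exchange with its own organelles. Sodium pumped out by the Na,K-ATPase drives cotransport of sugars, amino acids, phosphate and organic anions across the brush border, while mitochondrial, lysosomal, Golgi and metal carriers serve every cell. The genes were therefore divided into broadly expressed carriers and carriers enriched in particular tubule segments. A gene in neither list was left unclassed. The lists came from general knowledge of where each gene is expressed, and were drawn with earlier results of these data known. A peak value says how often the transposase cut there, not how much carrier the cell makes. In a bulk library, fewer cells with an open promoter and less cutting at that promoter in each cell cannot be told apart.

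The table gave scaled whole numbers, with totals of 124415 to 126782 per library. Reads estimated from the steps between those numbers ran from 67609 to 200680 per library, with a mean in myoglobin libraries 0.589 times as large as in vehicle libraries. A median carrier promoter peak rested on an estimated 6.97 to 19.2 reads per library. The tissue label could be checked at few genes only: 4 of 14 tubule epithelial markers had a promoter peak (Cdh16, Pax2, Epcam and Cdh1), and none of the markers of endothelium, fibroblasts and pericytes, immune cells or podocytes (5 each) had one. Among the 10 tubule markers without a promoter peak were Lrp2, Cubn and Hnf4a of the proximal tubule.

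The promoters below are those of the 4 carrier peaks with the smallest unadjusted p (Slc25a28, Slc22a5, Slc25a30 and Abca3) and of Abcc4, the 1 tubule-enriched carrier with a promoter peak. Each run holds 250 bases before and 50 after the start site, 5′ to 3′ on the gene's strand, from RefSeq on GRCm38.p6, the assembly called mm10 by the table. Capitals mark the letters of a searched motif on either strand: GGGCGG (GC box), CCAAT (NF-Y), CACGTG (E-box), TGACNNNGC (antioxidant response element) and CCGGAAG (ETS). The runs lie at chr19:43674832-43675131 (minus strand) for Slc25a28, chr11:53891654-53891953 (minus) for Slc22a5, chr14:75786988-75787287 (minus) for Slc25a30, chr17:24351773-24352072 (plus) for Abca3 and chr14:118706170-118706469 (minus) for Abcc4.
Slc25a28: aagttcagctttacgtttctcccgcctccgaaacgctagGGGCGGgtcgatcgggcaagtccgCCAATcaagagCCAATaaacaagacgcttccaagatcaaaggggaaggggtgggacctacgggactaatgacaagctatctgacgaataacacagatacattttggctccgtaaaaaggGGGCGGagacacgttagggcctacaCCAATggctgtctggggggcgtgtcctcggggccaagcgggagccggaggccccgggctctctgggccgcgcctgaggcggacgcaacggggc
Slc22a5: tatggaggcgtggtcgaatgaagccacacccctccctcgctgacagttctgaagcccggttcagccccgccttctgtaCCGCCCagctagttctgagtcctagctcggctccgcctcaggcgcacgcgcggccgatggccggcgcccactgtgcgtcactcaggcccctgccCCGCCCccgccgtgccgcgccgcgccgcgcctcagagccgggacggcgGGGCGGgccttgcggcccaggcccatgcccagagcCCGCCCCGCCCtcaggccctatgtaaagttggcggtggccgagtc
Slc25a30: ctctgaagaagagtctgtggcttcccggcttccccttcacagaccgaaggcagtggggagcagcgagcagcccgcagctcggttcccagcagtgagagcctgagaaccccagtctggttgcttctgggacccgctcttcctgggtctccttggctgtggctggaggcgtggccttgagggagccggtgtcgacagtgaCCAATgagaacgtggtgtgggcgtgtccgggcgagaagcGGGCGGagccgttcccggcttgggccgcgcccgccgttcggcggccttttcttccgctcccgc
Abca3: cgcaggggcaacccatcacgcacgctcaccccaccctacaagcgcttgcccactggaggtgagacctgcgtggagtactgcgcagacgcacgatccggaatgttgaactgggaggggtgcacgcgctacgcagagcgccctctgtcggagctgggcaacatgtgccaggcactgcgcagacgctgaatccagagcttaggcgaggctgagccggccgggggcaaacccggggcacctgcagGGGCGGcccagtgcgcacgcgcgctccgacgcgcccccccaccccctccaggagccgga
Abcc4: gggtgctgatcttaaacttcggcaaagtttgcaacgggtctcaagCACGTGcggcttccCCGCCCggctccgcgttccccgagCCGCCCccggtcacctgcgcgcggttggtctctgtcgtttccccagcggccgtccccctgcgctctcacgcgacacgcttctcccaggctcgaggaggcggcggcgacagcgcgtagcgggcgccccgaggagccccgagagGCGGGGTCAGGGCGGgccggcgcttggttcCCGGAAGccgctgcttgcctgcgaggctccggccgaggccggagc

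The peaks covered 268 of these 300 bases at Slc25a28, 284 at Slc22a5, 163 at Slc25a30 and 160 at Abca3. At Abcc4 the peak lay upstream of the printed window and covered none of it. Slc22a5 held 5 GC boxes, of which the 2 nearest the 3′ end overlap by a base, and no CCAAT. Slc25a28 had 2 GC boxes and 3 CCAAT matches, and Slc25a30 had 1 of each. Abcc4 was the only one of the 5 with an E-box, an antioxidant response element or an ETS match.

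No carrier promoter peak passed the test between myoglobin and vehicle. In limma, with p adjusted over all 6425 peaks, 0 of 86 were called, where 16 of all peaks were (0.249%), 13 of them higher (0.202%) and 3 lower (0.0467%). The smallest adjusted p among the 86 was 0.325. Unadjusted p was under 0.05 at 7 of 86, beside 488 of all peaks (7.6%), a share close to that background. Of the 7, 6 were lower after myoglobin (3.92% of all peaks were) and 1 was higher (3.67% of all peaks were). The count of 7 was 3 without vehicle library 1, 3 or 4 and 11 without myoglobin library 2, while the 16 calls over all peaks were 7, 9 and 8 without vehicle libraries 1, 2 and 4. The 4 myoglobin libraries lay on one side of the 4 vehicle libraries at 3 of 86 peaks, all on the low side, beside 195 of all peaks (3.04%), or 1.59% for the low side alone. The differences were spread on both sides of 0, with 41 above and 45 below (52.3% below, beside 52.8% of all peaks), and their median of -0.02 on the log2(value + 1) scale was that of all peaks, -0.02.

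**Figure D1:**
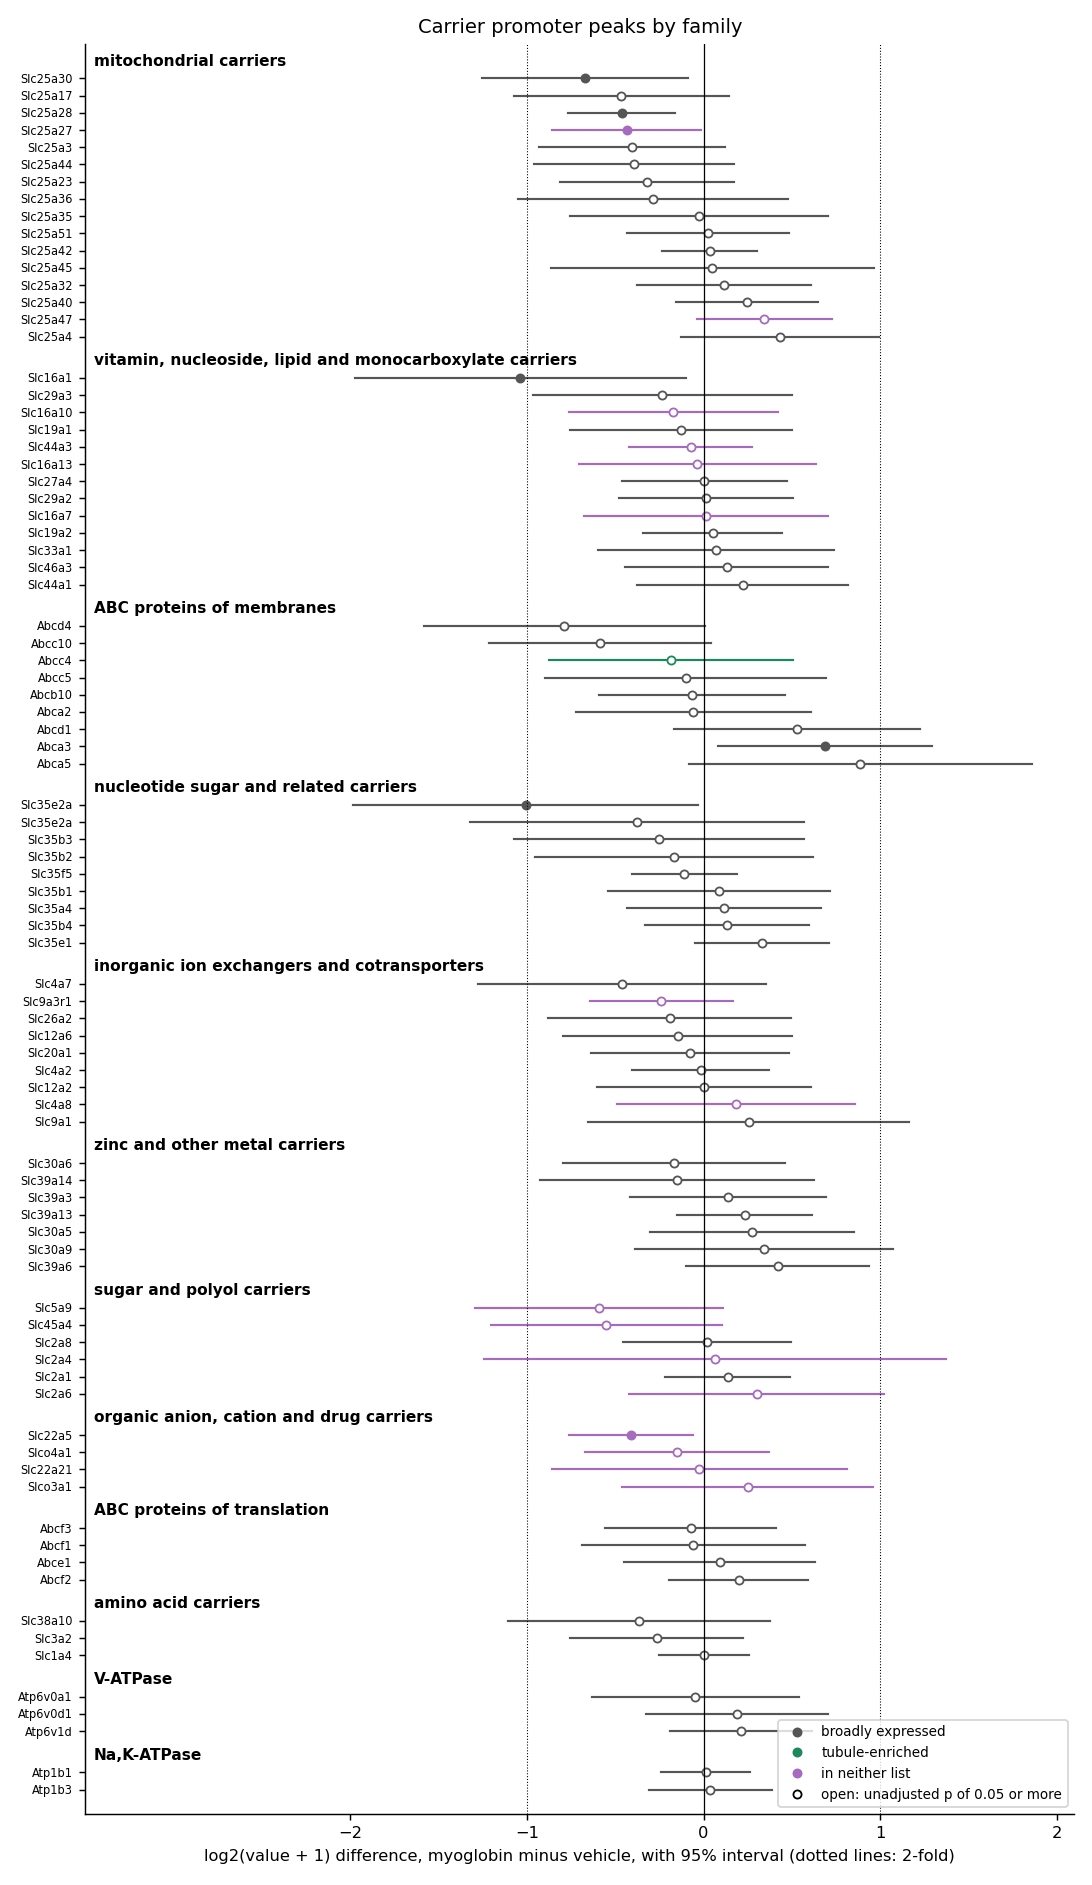
Difference between myoglobin and vehicle (log2(value + 1), horizontal axis) at 85 of the 86 carrier promoter peaks, each with its 95% interval, grouped by family. Points are coloured by expression class and filled where the unadjusted p was under 0.05. The 7 filled points are 6 on the low side and Abca3 on the high side, and most intervals cross 0.

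The carriers as a group took a similar part of each library in both conditions. Their peaks held 1.24% ± 0.018 of the total value in vehicle libraries and 1.23% ± 0.037 in myoglobin libraries (SD, n = 4 each). By library this share was 1.26%, 1.23%, 1.25% and 1.22% in vehicle and 1.18%, 1.23%, 1.23% and 1.27% in myoglobin. The myoglobin range held the vehicle range inside it.

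Among the mitochondrial carriers of the SLC25 family, which move nucleotides, phosphate, cofactors and metals across the inner membrane, 16 of 47 genes had a promoter peak. None of the 16 passed the test. Unadjusted p was under 0.05 at 3 of the 16 (Slc25a28, Slc25a30 and Slc25a27), or 18.8%, beside 7.6% of all peaks. All 3 were lower after myoglobin, where the low side alone was 3.92% of all peaks. The family was set with earlier results known, so this count is a description. The median difference was -0.16, with 7 above 0 and 9 below. The peak of Slc25a28, which encodes mitoferrin 2, an importer of iron into mitochondria, lay at chr19:43674864-43675507, with its centre 305 bp from the start. Its values were 55, 58, 64 and 53 in vehicle libraries 1 to 4 and 48, 44, 32 and 43 in myoglobin libraries 1 to 4. Every myoglobin library was below every vehicle library. The means were 57.5 ± 4.80 and 41.8 ± 6.85 (SD, n = 4 each). On the log2(value + 1) scale the difference was -0.46 ± 0.15 (SE), with limma's unadjusted p at 0.00314 and adjusted p at 0.325. Without myoglobin library 3, the lowest of the 8, the difference was -0.34.

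Slc25a27, known as uncoupling protein 4 and best described in brain, gave 27, 31, 27 and 27 in vehicle and 17, 23, 26 and 17 in myoglobin. The groups did not overlap, by a margin of 1 between the highest myoglobin and the lowest vehicle library. Its log2 difference was -0.44 ± 0.21 (adjusted p = 0.633). Slc25a30, a carrier first described in kidney mitochondria, gave 15, 16, 16 and 20 in vehicle and 9, 11, 6 and 17 in myoglobin (log2 difference -0.67 ± 0.29, adjusted p = 0.589). Here 3 myoglobin libraries lay below all vehicle libraries and library 4 lay among them. Slc25a47, a carrier described in liver, stood on the other side, with 29, 25, 25 and 24 in vehicle and 38, 29, 32 and 33 in myoglobin (log2 difference 0.34 ± 0.19, adjusted p = 0.696), and the groups met at 29. The start of a further carrier gene, Slc25a29, lay 103 bp from the centre of that peak, and the RefSeq start of Slc25a47 itself 15149 bp away. The table assigns the peak to Slc25a47 at 66 bp, so RefSeq and the table disagree on which promoter it covers.

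Slc25a42, the carrier of coenzyme A and the tallest mitochondrial member, gave 67, 69, 63 and 51 in vehicle and 58, 69, 67 and 61 in myoglobin, a log2 difference of 0.03 ± 0.13. The groups overlapped throughout. Slc25a4, the ADP/ATP exchanger, had a difference of 0.43 ± 0.28, while Slc25a3, the phosphate carrier of the same supply line, had -0.41 ± 0.26 (adjusted p = 0.752 for each). Slc25a17, the peroxisomal carrier of the family, had -0.47 ± 0.31 and Slc25a44, a carrier of branched-chain amino acids, -0.39 ± 0.28. Neither passed the test, with adjusted p of 0.756 and 0.798. Slc25a51, which imports NAD, had 0.03 ± 0.23.

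**Figure D2:**
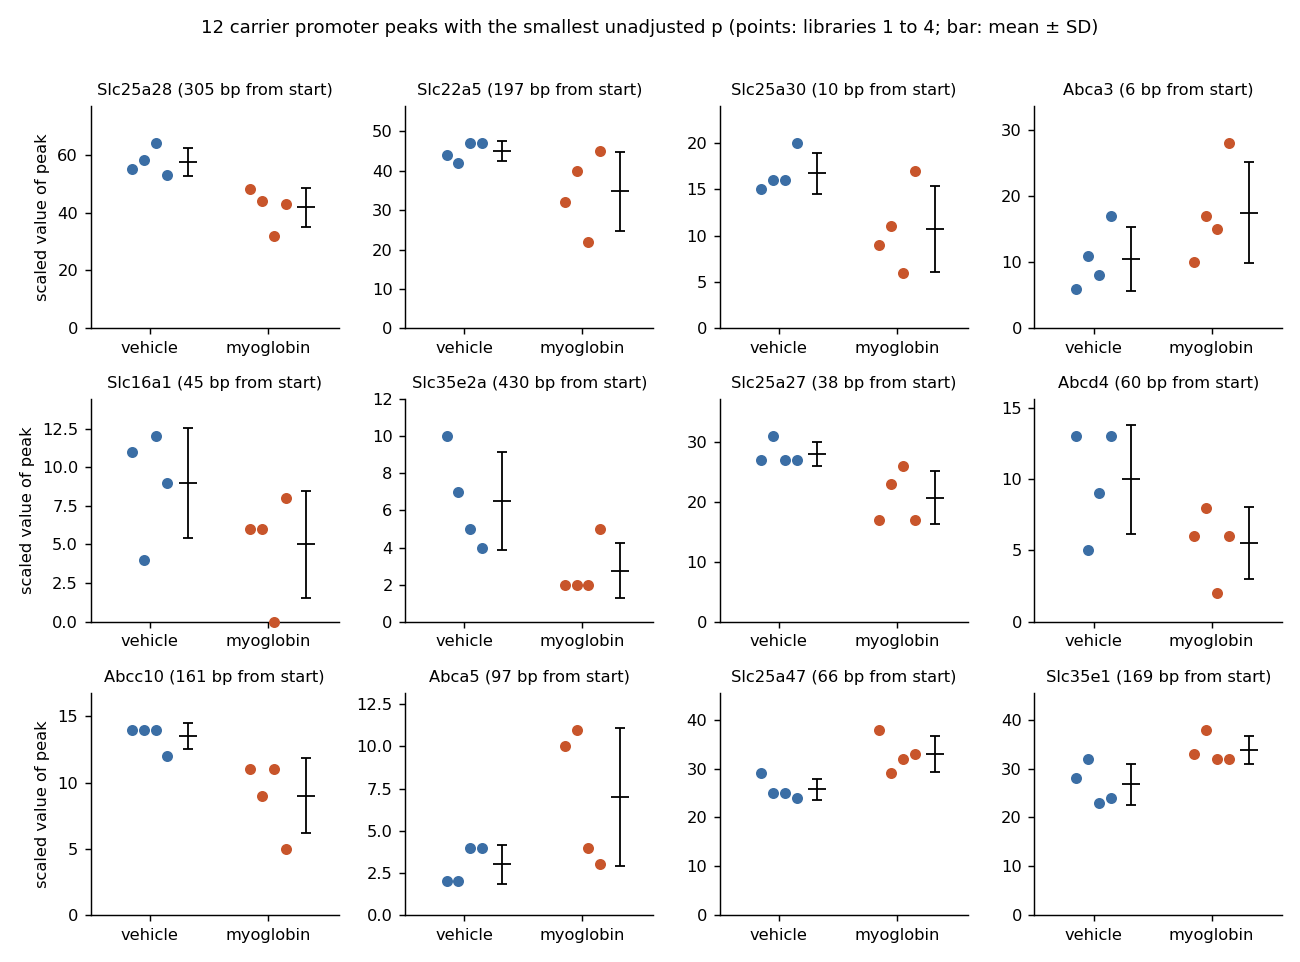
Scaled value in each library (points, replicates 1 to 4 from left to right) for the 12 carrier promoter peaks with the smallest unadjusted p, in order of p, with mean ± SD beside each group of 4. Each vertical axis starts at 0. Myoglobin lies wholly below vehicle at Slc25a28, Slc25a27 and Abcc10 only, and the other 9 overlap or share a value.

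Myoglobin carries haem and iron, and a list of 18 transporters of haem, iron and the cystine and glutathione supply was examined. The promoter peaks covered 4 of them, none called: Slc25a28, Slc3a2, Slc39a14 and Abcb10. All 4 differences were below 0, where 52.8% of all peaks were, with a median of -0.21 beside -0.02 for all peaks. Slc3a2, the heavy chain that carries the cystine and large neutral amino acid exchangers to the membrane, gave 17, 20, 22 and 19 in vehicle and 13, 14, 21 and 17 in myoglobin (log2 difference -0.27 ± 0.25, adjusted p = 0.866). Slc39a14, which takes up zinc and iron not bound to transferrin, gave 10, 5, 5 and 11 in vehicle and 7, 6, 7 and 6 in myoglobin (-0.15 ± 0.39). All its myoglobin values fell inside the vehicle range, and its difference ran from -0.31 to 0.03 with single libraries left out. Abcb10, a protein of the mitochondrial inner membrane with a part in haem synthesis, gave 21, 12, 21 and 15 in vehicle and 24, 11, 13 and 19 in myoglobin (-0.07 ± 0.26), and its sign changed when single libraries were left out. Slc7a11, Slc40a1, Slc48a1 and Slc11a2 were among the 14 listed genes with no peak assigned within the limit.

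Carriers of organic ions and drugs, the group behind much of tubular secretion, had 4 promoter peaks among 64 genes. Slc22a5, the sodium-dependent carnitine carrier OCTN2, which is widely expressed and abundant in the proximal tubule, was in neither class list. Its peak (chr11:53891670-53892043) gave 44, 42, 47 and 47 in vehicle and 32, 40, 22 and 45 in myoglobin. Myoglobin libraries 1, 2 and 3 were below every vehicle library, and library 4 was among them. The means were 45.0 ± 2.45 and 34.8 ± 10 (SD, n = 4 each), and the log2 difference was -0.41 ± 0.18 (unadjusted p = 0.0219, adjusted p = 0.575). Without myoglobin library 3 it was -0.21. Slc22a21, the neighbouring mouse carnitine carrier gene, had a low peak with a mean of 6.5 and a difference of -0.02 ± 0.42. The organic anion polypeptides Slco4a1 (-0.15 ± 0.26) and Slco3a1 (0.25 ± 0.36) did not pass the test either.

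The ABC transporters of membranes, which export lipids, drugs and conjugates using ATP, had 9 promoter peaks among 46 genes. None was called, and 1 (11.1%, beside 7.6% of all peaks) had an unadjusted p under 0.05. The range of differences, -0.79 to 0.89, was wide. Abca3, a lipid transporter best known from lung surfactant, gave 6, 11, 8 and 17 in vehicle and 10, 17, 15 and 28 in myoglobin (log2 difference 0.69 ± 0.31, unadjusted p = 0.0267, adjusted p = 0.595). Vehicle library 4 lay as high as myoglobin library 2, and the start of Abca17 lay 896 bp from the peak's centre. Abca5 gave 2, 2, 4 and 4 in vehicle and 10, 11, 4 and 3 in myoglobin (0.89 ± 0.49, adjusted p = 0.684), with 2 myoglobin libraries above the vehicle range and the others inside it. Abcc10, a multidrug resistance protein, gave 14, 14, 14 and 12 in vehicle and 11, 9, 11 and 5 in myoglobin (-0.59 ± 0.32, adjusted p = 0.679), and the groups did not overlap. Abcd4, which serves lysosomal export of cobalamin, gave 13, 5, 9 and 13 in vehicle and 6, 8, 2 and 6 in myoglobin (-0.79 ± 0.40, adjusted p = 0.649). All of these peaks had mean values under 20. Single libraries carried much of the difference at Abca3, Abcc10 and Abcd4. It was 0.44 for Abca3 and -0.36 for Abcc10 without myoglobin library 4, and -0.45 for Abcd4 without myoglobin library 3. The difference of Abca5 ran from 0.64 to 1.17 with single libraries left out.

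Monocarboxylate carriers exchange lactate and pyruvate, and were counted with the vitamin, nucleoside and lipid carriers, where 13 of 47 genes had a peak. Slc16a1, which encodes MCT1, gave 11, 4, 12 and 9 in vehicle and 6, 6, 0 and 8 in myoglobin. This was the lowest difference of all 86, -1.04 ± 0.47 (unadjusted p = 0.0308, adjusted p = 0.606), yet the groups overlapped and the value rested on 1 library: without myoglobin 3, where it was 0, the difference was -0.30. The median of the 13 was 0.00. Slc44a3, a choline transporter-like gene and the tallest of them, had a mean value of 35.4 and a difference of -0.07 ± 0.18. Slc19a2, the thiamine carrier, had 0.05 ± 0.20, and Slc27a4, a fatty acid transport protein, 0.00 ± 0.23. Slc44a1, the choline carrier, had 0.22 ± 0.30.

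Sugar carriers had 6 promoter peaks among 34 genes. Slc2a1, the widely expressed glucose carrier GLUT1, gave 33, 34, 29 and 36 in vehicle and 37, 47, 32 and 31 in myoglobin, a log2 difference of 0.14 ± 0.18 with overlapping groups. Per 100 bp of peak it was the highest of the 86 carrier promoter peaks, at 13.5, where the median was 7.70. Slc5a9, a sodium-dependent sugar carrier, gave 13, 7, 17 and 11 in vehicle and 5, 12, 11 and 4 in myoglobin (-0.59 ± 0.35, adjusted p = 0.716). Slc45a4 gave 12, 10, 12 and 15 in vehicle and 9, 5, 11 and 8 in myoglobin (-0.55 ± 0.33, adjusted p = 0.718), with the groups overlapping between 10 and 11. Slc2a4, the insulin-regulated glucose carrier of muscle and fat, was the lowest of all, with a mean value of 2.62, and gave 3, 1, 4 and 1 in vehicle and 3, 0, 2 and 7 in myoglobin. Amino acid carriers had only 3 peaks among 72 genes. Slc1a4, the neutral amino acid exchanger ASCT1, was the second tallest carrier peak, at 66, 63, 82 and 67 in vehicle and 71, 63, 75 and 69 in myoglobin, a difference of 0.00 ± 0.13. Its interval ran from -0.25 to 0.26, which leaves out a change of 1.5-fold either way on this scale.

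The Na,K-ATPase, the basolateral pump behind all sodium-driven uptake, had promoter peaks at its broadly expressed beta subunits, and neither passed the test. Atp1b1, which encodes the main kidney beta subunit, had the tallest carrier promoter peak (chr1:164458300-164459043), with 76, 72, 98 and 67 in vehicle and 91, 69, 90 and 66 in myoglobin. The groups covered nearly the same range. The means were 78.2 ± 13.7 and 79.0 ± 13.3, a log2 difference of 0.01 ± 0.13 with a 95% interval of -0.24 to 0.27. Atp1b3, a further beta subunit, gave 33, 40, 38 and 31 in vehicle and 34, 41, 32 and 39 in myoglobin (0.04 ± 0.17). The groups overlapped at both.

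The V-ATPase acidifies lysosomes and endosomes in all cells and the urine in intercalated cells. Of its 23 genes, 3 had a promoter peak, all of them broadly expressed subunits, and none passed the test. Atp6v1d gave 20, 29, 28 and 27 in vehicle and 22, 28, 41 and 32 in myoglobin (0.21 ± 0.20, adjusted p = 0.876), and Eif2s1 starts 376 bp from its centre. Atp6v0d1 gave 22, 16, 14 and 12 in vehicle and 12, 21, 24 and 17 in myoglobin (0.19 ± 0.26). Atp6v0a1 gave 12, 12, 18 and 15 in vehicle and 14, 12, 28 and 7 in myoglobin (-0.05 ± 0.29). The groups overlapped at all 3, and myoglobin library 3 was the highest of the 8 at each. The listed intercalated-cell subunits Atp6v1b1, Atp6v0a4, Atp6v1g3 and Atp6v0d2 had no promoter peak.

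Exchangers and cotransporters of inorganic ions had 9 promoter peaks among 56 genes, with no call and no unadjusted p under 0.05. Slc9a3r1 matches the name rule but encodes NHERF1, a scaffold that holds apical transporters in place, and is not itself a carrier. It gave 30, 27, 44 and 29 in vehicle and 31, 40, 22 and 19 in myoglobin (-0.24 ± 0.20, adjusted p = 0.844), with 2 myoglobin libraries below the vehicle range and the others inside it. Slc4a7, a sodium bicarbonate cotransporter, gave 8, 12, 11 and 4 in vehicle and 8, 11, 2 and 5 in myoglobin (-0.46 ± 0.41), and with single libraries left out its difference ran from -0.75 to -0.08, the last without myoglobin library 3. Slc12a2, the secretory sodium-potassium-chloride cotransporter, differed by 0.00 ± 0.30. Slc4a2, an anion exchanger, differed by -0.02 ± 0.20, and Slc20a1, a phosphate carrier of most cells, by -0.08 ± 0.28.

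Carriers of zinc and other metals (33 genes, iron, copper and magnesium carriers among them) had 7 promoter peaks, all at zinc carriers of the SLC30 and SLC39 families. Their median was 0.23, the highest of the families with at least 4 peaks, with 5 above 0 and 2 below. None passed the test or had an unadjusted p under 0.05. Slc39a6, a zinc importer, gave 13, 16, 12 and 13 in vehicle and 20, 14, 19 and 21 in myoglobin (0.42 ± 0.26, adjusted p = 0.735), and myoglobin library 2 lay inside the vehicle range. Slc39a13, a zinc carrier of the Golgi and its vesicles, gave 34, 27, 24 and 29 in vehicle and 27, 35, 47 and 28 in myoglobin (0.23 ± 0.19), where myoglobin library 3 stood highest. The difference of Slc39a13 changed to -0.04 when the 2 shallowest libraries, myoglobin 2 and 3, were set aside.

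The SLC35 carriers bring nucleotide sugars and related substrates into the Golgi and endoplasmic reticulum, and 8 of 27 genes had a peak. Slc35e1 gave 28, 32, 23 and 24 in vehicle and 33, 38, 32 and 32 in myoglobin (0.33 ± 0.19, adjusted p = 0.700), with the groups touching at 32. Slc35f5 gave 52, 68, 56 and 42 in vehicle and 51, 50, 48 and 50 in myoglobin (-0.11 ± 0.15). The myoglobin values of Slc35f5 sat close together within the vehicle range. The 2 peaks of Slc35e2a were among the lowest of all. The one 430 bp from the start gave 10, 7, 5 and 4 in vehicle and 2, 2, 2 and 5 in myoglobin (-1.01 ± 0.49, adjusted p = 0.633), and the one 51 bp away gave 7, 7, 5 and 3 in vehicle and 4, 3, 2 and 8 in myoglobin (-0.38 ± 0.47). Since both belong to 1 gene, they are not independent.

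Abce1, Abcf1, Abcf2 and Abcf3 also match the name rule. They belong to the ABC family by their ATPase domains but act in translation and ribosome recycling and cross no membrane. All 4 genes of this kind had a promoter peak, and none passed the test. Their differences ran from -0.07 to 0.20. Abcf2 gave 30, 26, 31 and 23 in vehicle and 22, 41, 34 and 32 in myoglobin (0.20 ± 0.20, adjusted p = 0.888). The Abce1 peak had its centre 11 bp from the start of Anapc10 as well as 12 bp from its own.

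Carrier promoter peaks ranged in height from 2.62 to 78.6 in mean value, with a median of 13.4, beside 17.6 for other promoter peaks. A mean of 20 or more was reached by 26.7% of them and by 42.8% of other promoter peaks, and a mean of 50 or more by 4.65% and 4.93%. Height went with width: across the 86 peaks, Pearson's r of mean value with peak width was 0.936 and Spearman's rho 0.898, as a description over peaks that share their libraries. Per 100 bp the median was 7.70, beside 7.94 for other promoter peaks. The tallest were Atp1b1, Slc1a4, Slc25a42 (mean 63.1), Slc35f5 (52.1), Slc25a28 (49.6) and Slc22a5 (39.9). The first 3 differed by no more than 0.03 on the log2 scale.

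**Figure D3:**
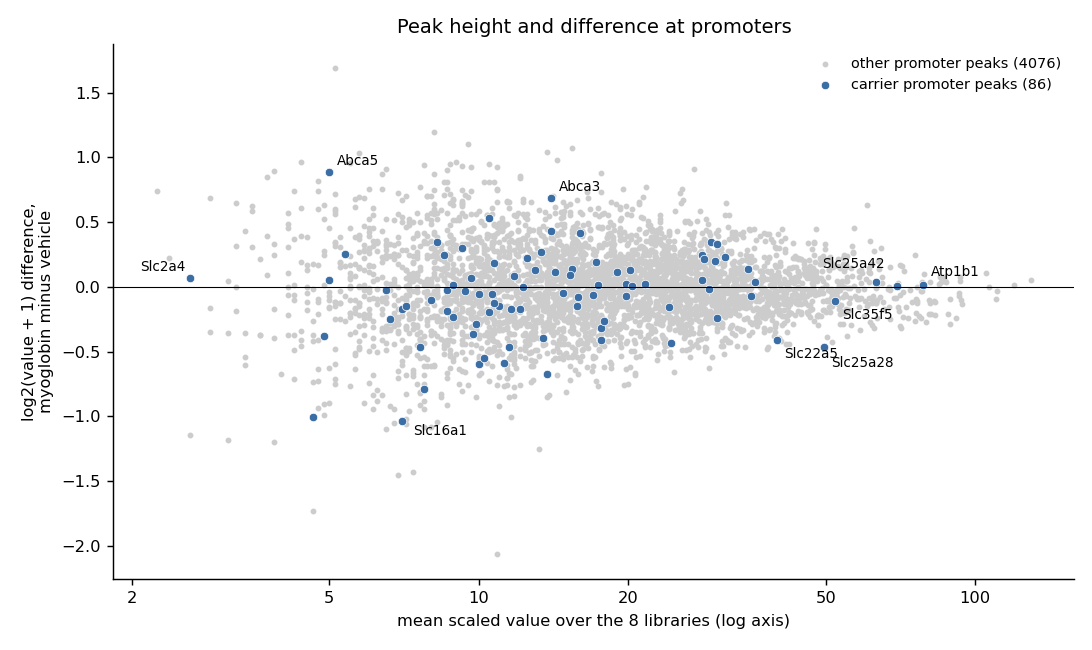
Mean scaled value over the 8 libraries (horizontal log axis) against the log2(value + 1) difference between myoglobin and vehicle, for the 86 carrier promoter peaks (blue) and 4076 other promoter peaks (grey). The carrier peaks lie within the cloud of other promoters, with the widest scatter at low values, and Slc25a28 and Slc22a5 stand lowest among the tall ones.

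The precision of these values limits what could be seen. The 95% interval lay inside a 2-fold change either way at 66 of 86 peaks and inside 1.5-fold at 14. At 72 it reached past 1.5-fold, so a change of that size was not left out at most carriers. Only 10 differences exceeded 0.5 in size, and all 10 were at peaks with a mean value under 20. The spread within groups was close to that of counting reads: summed over the 86 peaks, the variance was 1.13 times the counting variance in vehicle and 1.01 times in myoglobin. The standard deviation was larger in myoglobin at 55 of 86 peaks (64.0%, beside 63.2% of all peaks), in the group with fewer reads. Myoglobin library 3, the shallowest, was the lowest of the 8 at 18 peaks (20.9%, beside 16.05% of all peaks) and the highest at 13 (15.1%, beside 15.5%). Its part in the differences of Slc22a5, Slc25a28 and Slc16a1 is given with each.

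The carriers with a promoter peak were mostly broadly expressed ones. RefSeq lists 470 coding genes that match the name rule, and 85 of them (18.1%) had a promoter peak, beside 3818 of 21883 coding genes (17.4%). Among broadly expressed carriers the share was 68 of 174 (39.1%). Among tubule-enriched carriers it was 1 of 70 (1.43%), and among unclassed ones 16 of 226 (7.08%). Since the class lists were drawn with earlier results of these data known, these shares are descriptions. The proximal tubule list gave 1 of 57 and the collecting duct list 0 of 10. No promoter peak was assigned in the families SLC6 (21 genes), SLC7 (16) and SLC17 (9), which hold many brush-border carriers of amino acids, phosphate and urate, and SLC22 had 2 of 25. A carrier with no peak is one that the deposited set does not list near its start, which is not a measurement of closed chromatin.

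**Figure D4:**
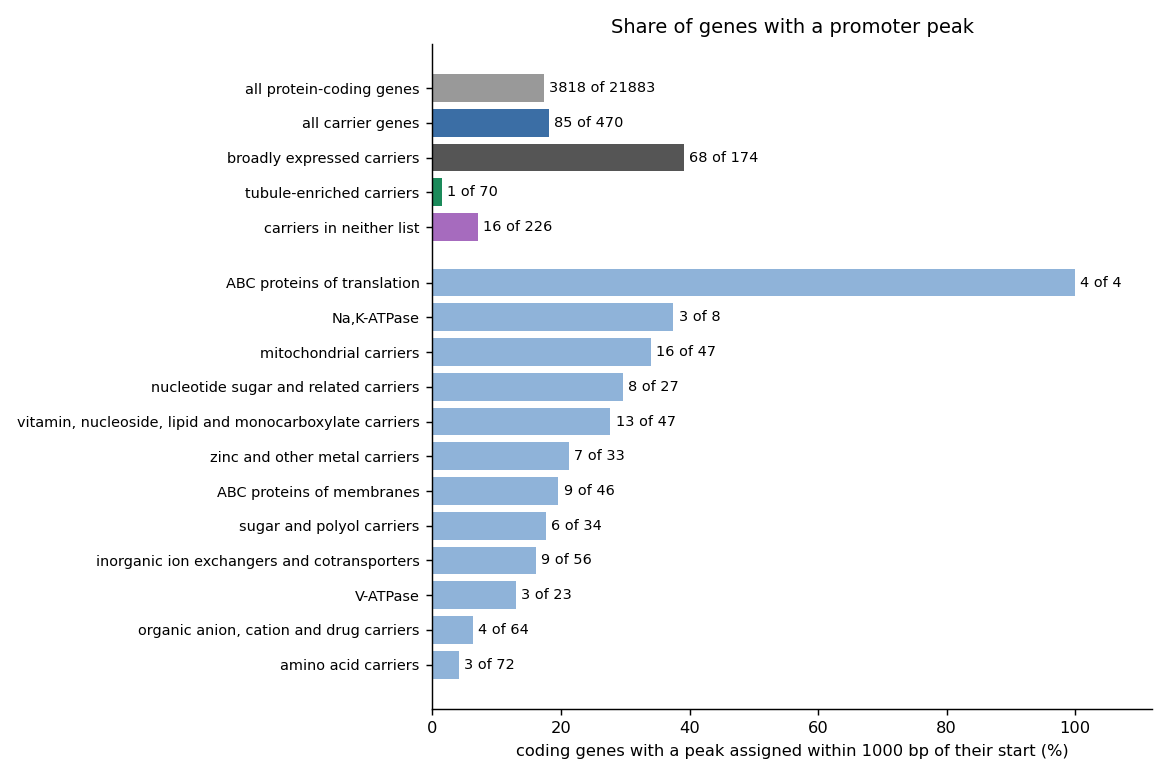
Share of coding genes with a peak assigned within 1000 bp of the start (horizontal axis, %), for all genes, carriers by expression class, and carriers by family, with counts beside each bar. Broadly expressed carriers reach 39.1% and tubule-enriched ones 1.43%, with 16 of 47 mitochondrial and 3 of 72 amino acid carriers.

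The single tubule-enriched carrier with a promoter peak was Abcc4, the efflux pump MRP4 of the apical membrane of proximal tubule cells, which other tissues also express. Its peak (chr14:118706506-118706616) gave 10, 11, 8 and 8 in vehicle and 7, 9, 7 and 9 in myoglobin, and the groups overlapped. The means were 9.25 ± 1.5 and 8 ± 1.15, a log2 difference of -0.19 ± 0.35 (adjusted p = 0.947), with a 95% interval of -0.88 to 0.51. With 1 such peak, the response of tubule-enriched carriers to myoglobin could not be compared with that of broadly expressed ones. The 69 peaks of broadly expressed carriers had a median difference of 0.00, with 35 above 0 and 34 below. Of them, 5 (7.25%) had an unadjusted p under 0.05, beside 7.6% of all peaks. Slc25a30 was listed as broadly expressed and was 1 of these 5, so the split depends on how the lists were drawn. The 16 unclassed peaks had a median of -0.05, with 2 such p-values (12.5%), at Slc22a5 and Slc25a27.

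A few tubule carriers had peaks that the name rule does not reach. The table assigns no gene to a peak at chr13:73692449-73692801, whose centre lies 11 bp from a RefSeq start of Slc6a19, the main neutral amino acid carrier of the proximal tubule brush border. This peak, found after the values were seen, gave 52, 50, 62 and 58 in vehicle and 51, 58, 50 and 49 in myoglobin, a log2 difference of -0.09 ± 0.14 (adjusted p = 0.936). The groups overlapped, and its mean of 53.8 would place it among the 4 tallest if it were added to the 86 carrier promoter peaks. Of 70 tubule-enriched genes, 5 had any peak within the gene span (Abcc4, Slc6a19, Slc12a3, Slc5a1 and Atp6v0a4). The same share over all coding genes was not computed, so this count has no background. The 2 unassigned peaks in Slc12a3, the thiazide target of distal tubule cells, are not promoter peaks under this rule. One gave 3, 4, 10 and 4 in vehicle and 23, 34, 24 and 19 in myoglobin (adjusted p = 3.29e-06) and the other 5, 14, 9 and 10 against 7, 2, 4 and 8 (adjusted p = 0.653). Of the 385 carriers without an assigned promoter peak, 299 had a RefSeq promoter sequence and could be checked. Among these, 14 had a peak within 1000 bp of a RefSeq start, so the shares above depend on how the table assigned genes.

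RefSeq promoter sequences were matched for 62 of the 85 carrier genes with a peak, and the peak overlapped 52 of these windows. The RefSeq starts of Slc25a47, Slc4a7, Slc3a2 and Slc4a2 lay 15149, 15642, 9391 and 1546 bp from their peaks. Over all 62, the median GC content was 64.3% (45.0% to 79.7%) and the median number of CpG dinucleotides 24 (2 to 48). The medians were 63.7% and 24 for the promoters of other genes with a peak. They were 56.3% and 13 over 17491 coding genes, and 52.7% and 7 over all 32851 reference promoter sequences. The last set is not limited to coding genes or to 1 sequence per gene. Over the 52 overlapped windows the medians were 64.8% and 24.5, with 14 to 48 CpG. Broadly expressed carriers had a median of 21 CpG and tubule-enriched ones 5. Among genes with 20 or more CpG, a peak was listed for 36 of 75 broadly expressed carriers (48.0%), for 1 of 12 tubule-enriched carriers (8.33%) and for 2165 of 6358 coding genes (34.1%). Below 5 CpG, 0 of 26 tubule-enriched carriers and 72 of 5107 coding genes (1.41%) had one. Of the 4 broadly expressed carriers below 5 CpG, Slc4a7 was counted with a peak, but its RefSeq window starts 15642 bp from that peak. Counted instead by any peak within 1000 bp of a RefSeq start, it was 0 of these 4. By that measure it was 1 of the 26 tubule-enriched carriers and 50 of the 5107 coding genes. CpG content therefore moved with the class, and its part in the difference of shares was not tested beyond these strata.

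**Figure D5:**
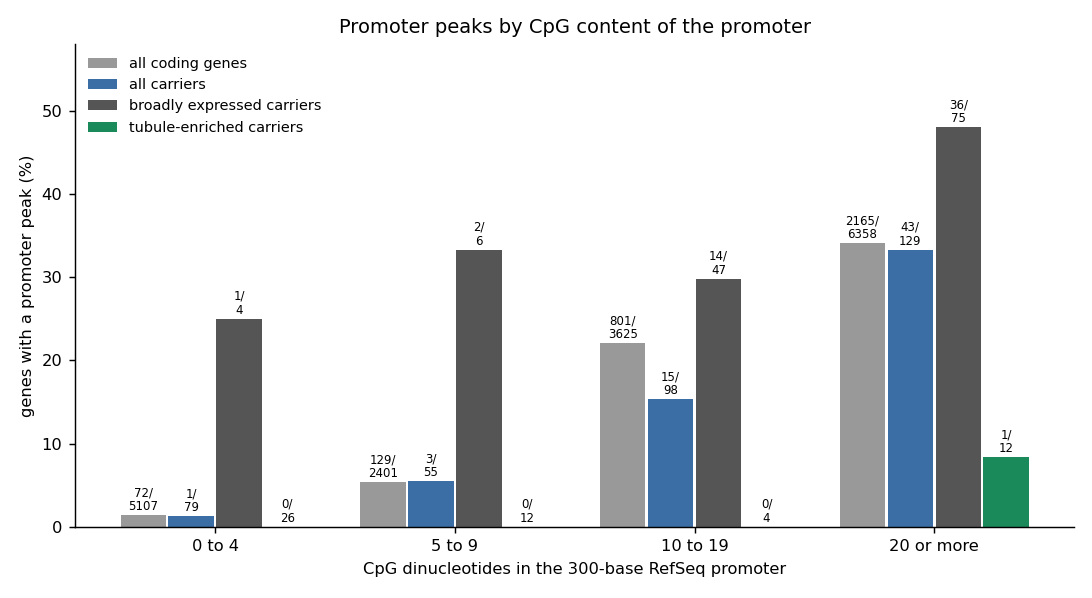
Share of genes with a promoter peak (vertical axis, %) by the number of CpG dinucleotides in the 300-base RefSeq promoter, for all coding genes, all carriers, broadly expressed carriers and tubule-enriched carriers, with counts above the bars. The share of all coding genes goes from 1.41% in the lowest bin to 34.1% in the highest, where 36 of 75 broadly expressed and 1 of 12 tubule-enriched carriers had a peak. Genes are counted by the table's own assignment, so Slc4a7 is the 1 of 4 broadly expressed carriers in the lowest bin.

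Motif letters in the 62 promoters were close to those of other promoters with a peak. The GC box GGGCGG was found in 79.0% (76.8% of other promoters with a peak and 35.7% of all 32851 reference sequences). CCAAT was found in 50.0% (49.5% and 37.4%), and the ETS letters CCGGAAG in 24.2% (19.6% and 8.86%). The antioxidant response letters TGACNNNGC were in 14 of 62 (22.6%, beside 17.0% and 12.4%), among them Abcc10 and Slc16a1, and the E-box CACGTG in 8 (12.9%, beside 10.1% and 7.15%), including Atp6v0d1, Slc16a1 and Slc30a5. In the 52 overlapped windows the shares were 84.6% for the GC box, 51.9% for CCAAT, 23.1% for ETS, 19.2% for the antioxidant response letters and 13.5% for the E-box. The ATF4 letters TGATGCAA were in Slc1a4 alone. The letters GTTAATNAT (HNF1) and CAAAGTCCA (HNF4), searched for 2 factors of the proximal tubule, were in 0 of 62. They were in 0.354% and 0.29% of other promoters with a peak, and in 0.801% and 0.475% of all 32851 reference sequences. Shares this low leave too few matches to expect in 62 windows, so the 0 does not set the carriers apart. None of the windows of Slc25a28, Slc22a5 or Slc25a30 held the antioxidant response letters. A match or its absence describes these letters in this window only.

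At the distance limit, the members nearest to 1000 bp were Slc19a1 at 937 bp (mean value 10.8, log2 difference -0.13), Slc4a7 at 863 bp (7.62, -0.46) and Slc2a4 at 753 bp (2.62, 0.07). The nearest carriers outside were Abcb8 at 1042 bp (13.5, 0.15), Slc27a1 at 1403 bp (91.8, -0.17) and Slc6a9 at 2108 bp (12.4, -0.10). The Slc27a1 peak was taller than any inside the limit. By RefSeq, a peak centre lay 309 bp from a start of Slc27a1, so it is among the genes above whose nearby peak was not assigned within the limit. Of the 86 members, at least 6 had the start of another coding gene within 1000 bp of the peak's centre. Only coding genes with a RefSeq promoter sequence could be searched (17491 of 21883).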

How the data were processed

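Per the submitters' processing notes, the build was mm10 and the tools were DESeq2 1.36.0, featureCounts, Picard 3.0.0, Trimmomatic 0.39 and STAR 2.7.10a. Which tool did what, the peak caller and any Tn5 offset of reads are not given in the sources used here. Per the labels' protocols, 50000 cells went into each reaction. The deposited values are treated as a score: whole numbers in 8 columns that the authors scaled and rounded, judged from skipped numbers and near-equal totals. No tests for counts were therefore run. The deposited table also gave each peak's distance to a start site and its gene symbol.

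Each column's scale factor was estimated by maximum likelihood (0.623 to 1.86), which gave estimated reads. The test was limma 3.58.1 on log2(value + 1), which understates changes at low values, with treatment as the only term, a variance trend and Benjamini-Hochberg adjustment over 6425 peaks at 0.05. It was tested on simulated data. Prior degrees of freedom were 78.5, against 6 residual ones per peak. Errors beside log2 differences are standard errors. Amplified reads are not independent molecules, so counting errors cover counting only.

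Members, class lists and families were chosen with earlier results of these data known, so counts and medians over them are descriptions. Named genes were the 12 members with the smallest p, the 6 tallest and 4 lowest, the tubule class, the haem, Na,K-ATPase and V-ATPase members, the 2 smallest p of each family with at least 4 peaks, and those at the distance limit; other genes were named after their values were seen, and 1 member is not reported here. Of the 85 genes, 62 matched a RefSeq promoter. Groups that share replicate numbers were checked for pairing: deviations of same-numbered libraries correlated at -0.013 to 0.026, and the libraries were treated as unpaired. Over all peaks the variance within groups was 1.17 (vehicle) and 1.09 (myoglobin) times the counting variance. A shared mouse could therefore go unseen in this check, and pairing remains unknown. The alternatives tried were a pseudocount of 0.1 or 5, a minimum mean of 10 or 50, scaling by cyclic loess, by totals or by median ratios, a replicate block, robust variance, library weights, each library left out, a window of 100 bp and 1 value per gene.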

Additional observations from a re-analysis of the deposited data

Results flagged for a closer look

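In 5 of 76 sets of 4 libraries, 1 library stood apart from the other 3 by more than Dixon's 95% criterion allows, where chance gives about 3.8. In myoglobin, the Slc35e2a peak 430 bp from the start had 5 in library 4 beside 2, 2 and 2, and Slc35e1 had 38 in library 2 beside 32 to 33. In vehicle, Slc25a27 had 31 in library 2 beside 27, 27 and 27, Abcc10 had 12 in library 4 beside 14, 14 and 14, and Slco3a1 had 9 in library 3 beside 7, 7 and 7. In 4 of the 5 sets the other 3 libraries held the same whole number, and at Slc35e1 they differed by 1. Scaled values that were rounded take few distinct numbers at such heights, and the part of this in the result was not tested.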

How the results depend on the processing

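Carrier promoter peaks called numbered 0 under every alternative run. The calls over all peaks were 9 with a pseudocount of 0.1, 1 with a filter at a mean of 50, 10 with the replicate number as a block, and 7 to 15 with single libraries left out. Carrier peaks with an unadjusted p under 0.05 numbered 0 with the filter at 50 and 4 within 100 bp of the start (51 peaks), and 3 to 11 with single libraries left out. The block, tried although the labels do not say whether equal numbers mark the same mouse, left 7 such peaks and 0 called. The causes were not tested, except that the filter and the narrower window leave fewer peaks.

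With single libraries left out, the median over carriers ran from -0.04 to -0.01, over broadly expressed ones from -0.03 to 0.01, over the tubule class from -0.24 to -0.11, and the difference of shares from -0.0295 to 0.0003 percentage points. Differences near 0 changed sign in that setting: Atp1b1 (-0.059 to 0.125), Slc1a4 (-0.0394 to 0.0856), Slc25a42 (-0.0589 to 0.0841), Slc35f5 (-0.225 to 0.00264), Slc2a4 (-0.39 to 0.61), Slc25a45 (-0.12 to 0.23), Slc39a14 (-0.306 to 0.0272), Abcb10 (-0.25 to 0.10), Atp1b3 (-0.0215 to 0.0986), Atp6v0a1 (-0.38 to 0.24) and Abce1 (-0.0492 to 0.265). In all, leaving out 1 library changed the sign or moved the value by over 1.5 times for 29 of the 37 differences named. Without myoglobin library 3, the Slc35e2a peak nearer the start was -0.15, Slc39a13 0.07, Atp6v1d 0.07 and Atp6v0d1 0.06. Without myoglobin library 4, Slc5a9 was -0.35, Slc9a3r1 -0.08 and Slco3a1 0.03. Without myoglobin library 2, Slc45a4 was -0.36, Abcf2 0.08 and Slc44a1 0.03, and without library 1 Slc3a2 was -0.17. Slc2a4 was -0.43 with a pseudocount of 0.1, and with library weights Slc25a45 was -0.0578 and Abcb10 0.0425. Without the 2 shallowest libraries, a setting chosen after seeing the data, the sign also changed at Slc25a42 (-0.0609), the Slc35e2a peak nearer the start (0.10), Slc25a45 (-0.21), Abcb10 (0.33), Atp6v0d1 (-0.12), Slc39a13 (-0.0392) and Abcf2 (-0.0395). None of these had passed the test. Depth limits all of it: at 20 of 86 peaks the 95% interval reached past a 2-fold change.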
